A study of Mus musculus with 12 samples.

Results

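The disease-associated microglia genes are 10 genes that microglia express at a high level in degenerating or injured neural tissue: Trem2, Tyrobp, Apoe, Cst7, Lpl, Itgax, Spp1, Clec7a, Gpnmb and Axl. They were taken by gene symbol from a table of 32867 genes, in which each symbol was found once. The table holds the reads counted per gene and FPKM values (fragments per kilobase of gene, scaled to the reads counted on genes) of mouse retina RNA in 4 groups of 3 samples. The Pde6b rd1 retinas carry a retroviral insertion in Pde6b and were taken at postnatal day 13, the Pde6b rd10 retinas a point mutation in Pde6b and were taken at day 23, and the Prph rd2 retinas a mutation in Prph2 and were taken at day 29. The control retinas came from C3H mice with wild-type alleles of Pde6b and Prph2, and the labels give 1 control sample each at days 13, 23 and 29. The days of the models are the peaks of photoreceptor death, so the comparisons ask how far these genes differ from wild-type retina at the peak in each model and between the models.

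The mice were used irrespective of gender. According to the methods, rd1, rd2 and the controls share the C3H background while rd10 is on C57Bl6/J, whereas the labels give C57BL6/J for rd2. By the methods, the rd10 allele and the strain cannot be told apart in a comparison of rd10 with the other groups, and by the labels, this holds for rd2 against C3H. Reads counted on genes ranged from 17049495 to 24755890 per sample. Pde6b, the mutated gene of both rd1 and rd10, lay at 1244 to 1256 CPM (reads scaled to the size of the library, with TMM factors) in C3H, at 278 to 279 in rd1 and at 840 to 859 in rd10. Prph2 lay at 2698 to 2988 CPM in C3H and at 1297 to 1453 in rd2. Xist, the RNA of the inactive X chromosome in female cells, had 8 to 10 reads in the C3H samples. In the 9 samples of the models it had 13428 to 83716 reads. It was thus near absent from every control and present in every model sample, so the sexes were not balanced over the groups. Sex and model cannot be told apart in the comparisons with C3H, and the part of sex in the results below was not tested. The C3H samples differ in age, so their spread includes any change with age. No label says whether the 3 samples of a model came from separate animals, and p-values measure the spread between the samples as deposited.

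In retina, microglia are the resident macrophages. They sit in the synaptic layers under normal conditions and reach the photoreceptor layer when photoreceptors die. TREM2 is a surface receptor for lipids and lipoproteins that signals through its adaptor TYROBP (DAP12), and the disease-associated state has been described as an early step without need for TREM2, in which Tyrobp, Apoe and homeostatic genes change, followed by a TREM2-dependent step with Axl, Clec7a, Cst7, Itgax, Lpl and Spp1. Several of these genes are not specific to microglia. Apoe is also made by Müller glia and astrocytes, Gpnmb by pigment cells, Spp1 by some ganglion cells, and Axl and Lpl by several glial and vascular cells. In bulk retina RNA, fewer cells of a type and less RNA per cell cannot be told apart.

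On GRCm38 with GENCODE vM21, Trem2 (ENSMUSG00000023992) lies at chr17:48346401-48354147 on the plus strand and Tyrobp (ENSMUSG00000030579) at chr7:30413760-30417585 on the plus strand. Apoe (ENSMUSG00000002985) lies at chr7:19696109-19699188 and Axl (ENSMUSG00000002602) at chr7:25757273-25788705, both on the minus strand, and Itgax (ENSMUSG00000030789) at chr7:128129547-128150657 on the plus strand. Gpnmb (ENSMUSG00000029816) lies at chr6:49036546-49070929 on the plus strand and Clec7a (ENSMUSG00000079293) at chr6:129461591-129472779 on the minus strand. Spp1 (ENSMUSG00000029304), Cst7 (ENSMUSG00000068129) and Lpl (ENSMUSG00000015568) lie on the plus strand at chr5:104435118-104441050, chr2:150570415-150578944 and chr8:68880491-68907448. The annotation lists Clec7a as a polymorphic pseudogene and the others as protein-coding. It places the unclassified transcript Gm42793 on the strand of Spp1 and overlapping it, and Gm42793 had at most 2 reads in any sample. No circular RNA of the deposited junction table lay at any of the 10 loci.

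The 4 genes with the largest fitted change in rd10 are shown with the 250 bases before their RefSeq start site, in GRCm38.p6 and in the direction of transcription, since these are the genes on which the results below turn. Capitals mark matches, on either strand, to 4 short motifs: GGAAGT (ETS factors such as PU.1), TGTGGT (RUNX), TGANTCA (AP-1) and the IRF motif (GAAA, any 2 bases, GAAA).
Clec7a (chr6:129472780-129473029, minus strand): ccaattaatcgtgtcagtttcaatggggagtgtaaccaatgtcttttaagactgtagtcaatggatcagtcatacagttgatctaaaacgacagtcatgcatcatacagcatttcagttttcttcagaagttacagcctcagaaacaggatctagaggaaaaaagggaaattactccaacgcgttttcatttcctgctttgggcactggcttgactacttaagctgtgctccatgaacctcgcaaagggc
Gpnmb (chr6:49036268-49036517, plus strand): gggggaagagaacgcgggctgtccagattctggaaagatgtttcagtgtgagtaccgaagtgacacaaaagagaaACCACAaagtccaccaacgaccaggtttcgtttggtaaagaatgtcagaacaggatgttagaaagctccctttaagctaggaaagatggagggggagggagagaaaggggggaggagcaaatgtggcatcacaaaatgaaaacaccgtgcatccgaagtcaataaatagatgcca
Spp1 (chr5:104434861-104435110, plus strand): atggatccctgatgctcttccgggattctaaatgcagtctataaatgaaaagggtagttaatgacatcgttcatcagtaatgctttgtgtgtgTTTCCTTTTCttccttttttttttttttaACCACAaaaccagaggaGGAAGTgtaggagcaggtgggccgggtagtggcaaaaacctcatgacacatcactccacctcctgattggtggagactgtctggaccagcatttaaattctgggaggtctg
Itgax (chr7:128129300-128129549, plus strand): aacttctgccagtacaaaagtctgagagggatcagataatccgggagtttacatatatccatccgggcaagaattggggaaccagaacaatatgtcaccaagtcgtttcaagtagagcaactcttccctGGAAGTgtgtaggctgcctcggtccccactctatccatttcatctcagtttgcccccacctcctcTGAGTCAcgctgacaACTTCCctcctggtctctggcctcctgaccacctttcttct

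The Itgax window held GGAAGT on the plus strand 121 bases and on the minus strand 41 bases before the start, with TGANTCA between them at 56 bases. The Spp1 window held GGAAGT at 111 bases, TGTGGT at 128 and the IRF motif at 157, and the Gpnmb window TGTGGT at 175 bases. The Clec7a window shown held none of these letters. Promoter windows were matched for 8 of the 10 genes, all but Tyrobp and Lpl. GGAAGT and TGTGGT were each present in 3 of the 8 and in 19.7% and 14.0% of the 32817 windows of all genes. TGANTCA was present in 2 of the 8 against 6.75%, and the IRF motif in 1 against 2.97%. The E-box letters CATGTG and CACGTG, which MITF and TFE factors can bind, were present in 0 of the 8, against 12.3% and 6.02% of all windows. These matches describe letters in short windows and not binding.

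The wild-type retina held these genes at very different levels per length. Apoe, which encodes an apolipoprotein, led with 73.3 ± 6.36 FPKM (SD, n = 3), followed by Axl with 4.49 ± 0.157 and Tyrobp with 2.82 ± 0.274. Spp1 (1.71 ± 0.372 FPKM) and Lpl (1.53 ± 0.128 FPKM) overlapped in their samples. Trem2 lay below them at 0.345 ± 0.0672 FPKM. Gpnmb, Itgax, Clec7a and Cst7 came last, from 0.203 FPKM on average for Gpnmb downwards, and neighbours in that order overlapped. Cst7 had 1 to 3 reads per C3H sample and Clec7a 3 to 10, so their levels there rest on few molecules. Intervals given below for such counts reflect the error of counting alone. They use the reads summed over the samples of a group and leave out the spread between samples. The reads also carry no molecular identifiers and need not be separate molecules. Apoe made up 72.6 to 88.0% of the summed FPKM of the 10 genes in all samples. Without it, the summed level of the other 9 was 11.1 to 11.8 FPKM in C3H, 11.7 to 14.7 in rd1, 11.3 to 12.1 in rd2 and 58.1 to 62.9 in rd10.

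**Figure D1:**
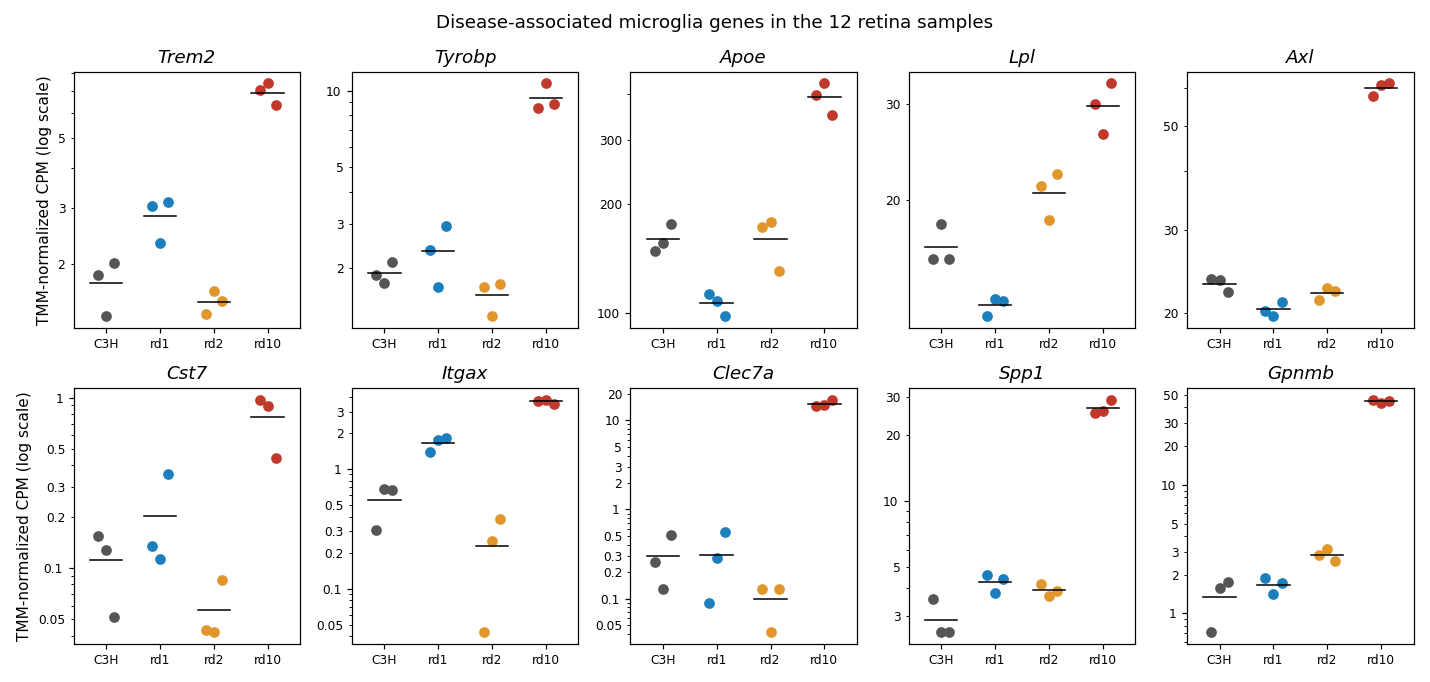
TMM-normalized CPM (log scale, with a range of its own in each panel) of the 10 genes in the 12 samples; each point is a sample, in replicate order, and the bar is the group mean. For every gene the 3 rd10 samples lie above the 9 samples of the other groups, by the widest margin for Clec7a (14.5 to 17.0 CPM) and Gpnmb (43.5 to 45.9 CPM).

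Against C3H, all 10 genes were higher in every rd10 sample than in every control sample, while 31.2% of the 18704 genes tested in that comparison lay above the controls in this way and 27.7% below. Of the 10, 9 passed the filter on low counts and all 9 rose (edgeR quasi-likelihood test, unadjusted p under 0.05 and at least 1.5-fold), where 15.9% of all tested genes rose and 8.08% fell. Without the rd10 samples 7 of these 9 would have passed the filter, since Clec7a and Itgax passed through their level in rd10 alone. The rises ran from 1.79-fold for Lpl to 52.0-fold for Clec7a. The median log2 fold change was 2.27 over the 9 and 2.00 over the 7, against -0.00 over all genes.

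Both genes of the receptor pair rose. Trem2 stood at 0.367, 0.269 and 0.398 FPKM in the C3H samples and at 1.43, 1.52 and 1.29 FPKM in the rd10 samples, which is 3.99-fold (log2 2.00 ± 0.16, SE, adjusted p = 1.71e-09). Tyrobp, whose protein carries the signal of TREM2 and of other receptors of myeloid cells, stood at 2.79, 2.56 and 3.10 FPKM in C3H and at 12.8, 16.3 and 13.5 FPKM in rd10 (log2 2.27 ± 0.15, adjusted p = 6.31e-11). For both genes the rd10 samples lay above the other 9.

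The genes of lipid transport and of apoptotic-cell uptake, which had the highest or middle levels in wild type, changed least. Apoe, a ligand of TREM2 and of the LDL receptor family, stood at 68.4, 71.1 and 80.5 FPKM in C3H and at 185, 204 and 166 FPKM in rd10 (2.43-fold, log2 1.28 ± 0.06, adjusted p = 4.19e-13). Lpl, the lipase that frees fatty acids from lipoproteins, stood at 1.46, 1.68 and 1.45 FPKM in C3H and at 2.85, 2.56 and 3.15 FPKM in rd10 (1.79-fold, log2 0.84 ± 0.08, adjusted p = 2.8e-08). Axl, the TAM receptor kinase that binds GAS6 on dying cells, was evenly expressed among the replicates, at 4.31 to 4.61 FPKM in C3H and 11.5 to 12.4 FPKM in rd10 (2.58-fold, log2 1.37 ± 0.06, adjusted p = 4.84e-14).

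Clec7a and Gpnmb, both rare in wild type, changed most. Clec7a encodes dectin-1, a receptor for fungal glucans used as a marker of reactive microglia. It had 5, 3 and 10 reads in the C3H samples and 359, 282 and 345 in the rd10 samples. From the summed reads, scaled for depth, its level was 53.4 times as high (exact 95% interval 33.6 to 90.5), and its fitted log2 fold change was 5.70 ± 0.21 (adjusted p = 4.96e-15). Gpnmb, a glycoprotein of lysosomes and of melanosomes, had 14, 37 and 34 reads in C3H and 1133, 828 and 900 in rd10, which took it from seventh place in wild type to 6.91 ± 0.118 FPKM, above Lpl and Trem2 (32.4-fold, log2 5.02 ± 0.13, adjusted p = 9.16e-18).

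Spp1, which encodes the secreted matrix protein osteopontin, became second to Apoe in rd10. It stood at 2.14, 1.49 and 1.5 FPKM in C3H and at 15.3, 16.0 and 17.9 FPKM in rd10 (9.25-fold, log2 3.21 ± 0.12, adjusted p = 3.79e-15), and its rd10 samples overlapped those of Tyrobp. Itgax, the integrin chain CD11c, had 6, 16 and 13 reads in C3H and 92, 72 and 71 in rd10 (log2 2.69 ± 0.25, adjusted p = 9.19e-09). Cst7, an inhibitor of cathepsins (cystatin F), did not pass the filter. It had 3, 3 and 1 reads in C3H and 24, 17 and 9 in rd10, a ratio of 6.97 with an exact 95% interval of 3.14 to 18.2.

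**Figure D2:**
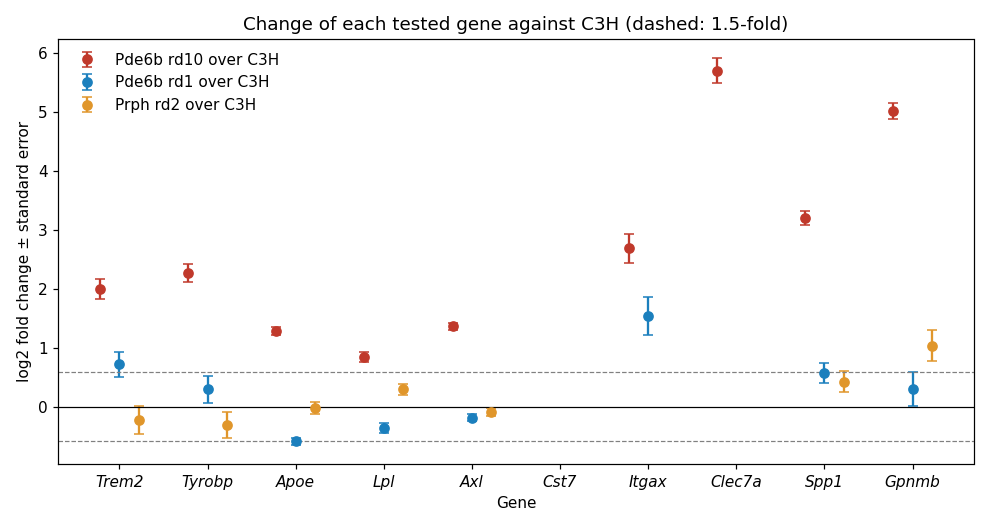
Log2 fold change against C3H with its standard error (edgeR) for each gene tested, in rd10 (9 genes), rd1 (8 genes) and rd2 (7 genes); the dashed lines mark 1.5-fold. All 9 rd10 points lie above the upper line, while in rd1 Trem2 and Itgax and in rd2 Gpnmb do; genes that did not pass the filter have no point.

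In rd1 few of the 10 genes were called. Of the 8 tested, 2 rose and 1 fell, where 8.98% of all genes rose and 6.03% fell, and their median log2 fold change was 0.30. Of the 8, 7 would have passed the filter by their C3H samples alone, and Itgax passed through its level in rd1. In every rd1 sample, 3 of the 10 (Trem2, Itgax and Spp1) lay above and 3 (Apoe, Lpl and Axl) below every control sample, where 25.8% and 25.2% of all genes did, which is near the share among the 10. Itgax had 31, 31 and 36 reads in rd1 against 6, 16 and 13 in C3H and rose by 1.54 ± 0.32 on the log2 scale (adjusted p = 0.000364). Trem2 stood at 0.630, 0.486 and 0.651 FPKM, above each C3H sample, and rose 1.65-fold (log2 0.72 ± 0.21, adjusted p = 0.00799). Its partner Tyrobp stood at 3.64, 2.64 and 4.51 FPKM, overlapping the controls, and was not called (log2 0.29 ± 0.22, adjusted p = 0.306).

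Apoe, by contrast, stood at 54.2, 52.4 and 47.2 FPKM in rd1, below every control sample, and fell by 0.59 ± 0.05 on the log2 scale (adjusted p = 2.16e-09). Lpl (-0.37 ± 0.08, adjusted p = 0.00112) and Axl (-0.18 ± 0.07, adjusted p = 0.0286) had lower log2 levels with smaller differences than 1.5-fold. Spp1 lay just under that fold at 0.58 ± 0.17 (adjusted p = 0.00805) and passed it without the day 13 C3H sample (0.76) or without rd1 replicate 2 (0.65). Gpnmb overlapped the controls (log2 0.30 ± 0.29, adjusted p = 0.419). Clec7a had 2, 5 and 11 reads in rd1, a ratio of 1.04 (exact 95% interval 0.512 to 2.12), and Cst7 had 3, 2 and 7 reads, a ratio of 1.79 (0.649 to 5.36), so no difference of either was detectable at this depth. Against the day 13 C3H sample alone, where the spread comes from the 3 rd1 samples only, Trem2 differed by a like log2 0.61 with an edgeR adjusted p of 0.149. Its fold was under the threshold without the day 23 C3H sample (0.55). The fall of Apoe lay at the fold threshold and was under it at -0.49 against the day 13 sample alone, at -0.52 without the day 29 C3H sample and at -0.54 without rd1 replicate 3.

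In rd2 only Gpnmb rose among the 7 genes tested and none fell, where 2.68% of all genes rose and 1.89% fell. In every rd2 sample, 3 of the 10 (Lpl, Spp1 and Gpnmb) lay above and 1 (Tyrobp) below every control sample, where 17.9% and 11.2% of all genes did. Gpnmb had 66, 75 and 60 reads against 14, 37 and 34 in C3H (2.05-fold, log2 1.04 ± 0.26, adjusted p = 0.0232). Against the day 29 C3H sample alone, which had 34 reads, the difference was 0.67 and still over 1.5-fold, but with the spread taken from the 3 rd2 samples only it was not called (adjusted p = 0.407). The receptor pair did not pass, with log2 fold changes of -0.22 ± 0.24 for Trem2 (adjusted p = 0.642) and -0.31 ± 0.22 for Tyrobp (adjusted p = 0.447).

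Apoe was at the control level on average but uneven in rd2, at 78.8, 83.1 and 59.6 FPKM (log2 -0.02 ± 0.10, adjusted p = 0.922). Axl differed by -0.09 ± 0.07 on the log2 scale (adjusted p = 0.475). Lpl (0.30 ± 0.09, adjusted p = 0.0535) and Spp1 (0.43 ± 0.18, adjusted p = 0.152) had log2 levels above all control samples with differences under 1.5-fold. Of the rarest genes, Itgax had 1, 6 and 9 reads, a ratio of 0.404 (exact 95% interval 0.209 to 0.749), and Clec7a 3, 1 and 3 reads, a ratio of 0.344 (0.121 to 0.862). Both Itgax and Clec7a overlapped the controls in their samples and were left out by the filter. Both were called lower where no filter was used (edgeR adjusted p = 0.117 and 0.279). Cst7 had 1, 1 and 2 reads, a ratio of 0.505 (0.108 to 1.99).

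The models were then set against each other in a fit of all 12 samples, since their comparisons with C3H share the control samples. Between rd10 and rd1, all 9 tested genes were higher in rd10, where 17.6% of all genes were higher and 11.2% lower. Of the 9, 8 would have passed the filter by their rd1 samples alone, and Clec7a passed through its level in rd10. The log2 differences ran from 1.17 ± 0.26 for Itgax (adjusted p = 0.000594) to 5.67 ± 0.27 for Clec7a (adjusted p = 4.76e-13). Trem2 differed by 1.30 ± 0.16 and Tyrobp by 2.00 ± 0.17. Between rd10 and rd2, 8 of the 9 were higher in rd10, where 13.5% of all genes were higher and 6.16% lower, and 7 of the 9 would have passed the filter by their rd2 samples alone. Lpl was the exception, with a log2 difference of 0.55 ± 0.08 (adjusted p = 1.96e-05) that was under 1.5-fold with all samples and over it without rd10 replicate 2 (0.61) or rd2 replicate 3 (0.60), and Clec7a differed most, by 7.22 ± 0.31.

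Between rd2 and rd1, 6 of the 9 tested genes differed, 3 in each direction, where 8.21% of all genes were higher and 8.66% lower in rd2. Of the 9, 8 would have passed the filter by their rd1 samples alone, while Clec7a passed through its level in rd10. For Itgax and Clec7a, 0 of the rd2 samples reached the cut of the filter. The samples did not overlap for 7 of the 10, with 4 (Apoe, Lpl, Gpnmb and Axl) above and 3 (Trem2, Itgax and Cst7) below in rd2, where 25.3% and 22.2% of all genes did so. Lpl (log2 0.68 ± 0.09), Gpnmb (0.75 ± 0.20) and Apoe (0.59 ± 0.10) were higher in rd2. Itgax (log2 -2.83 ± 0.39, adjusted p = 6.91e-06) and Trem2 (-0.91 ± 0.19, adjusted p = 0.00066) were lower in rd2. Clec7a was lower by the same rule at 1 to 3 against 2 to 11 reads, but its edgeR adjusted p was 0.0779. Spp1 (-0.13 ± 0.14), Axl (0.12 ± 0.06) and Tyrobp (-0.58 ± 0.21) had log2 differences that were not called, the last of them close to 1.5-fold. The calls of Apoe, Clec7a and Tyrobp in this contrast changed when single samples were left out. Apoe kept its call in 5 of 13 alternatives and was no longer called without rd1 replicate 3 (0.54) or rd2 replicate 1 (0.54) or 2 (0.50), and Clec7a without rd1 replicate 2 (-1.59) or 3 (-0.78) or rd2 replicate 2 (-1.20). Tyrobp was called lower in rd2 without rd1 replicate 2 (-0.75) or rd2 replicate 1 (-0.63) or 3 (-0.65).

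General markers of microglia were then used as a yardstick. The summed level of 11 pan-microglia genes (Aif1, Ptprc, C1qa, C1qb, C1qc, Ctss, Laptm5, Fcer1g, Cd53, Ly86 and Cyba) was 46.4 to 48.4 CPM in C3H, 45.4 to 49.2 in rd1, 42.6 to 44.5 in rd2 and 216 to 230 in rd10, and none of the 11 was at 0 in any group. In rd10 all 11 rose, 9 of which would have passed the filter by their C3H samples alone, from a log2 fold change of 1.54 for Ly86 to 3.50 for Ptprc, with a median of 2.30. In rd1 0 of the 10 tested and in rd2 0 of the 11 tested were called by edgeR, DESeq2 or limma, while at an unadjusted p under 0.05 alone 1 was higher and 1 lower in rd1 and 3 were lower in rd2.

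Counted per 1000 reads of these 11 genes, the disease-associated genes separated into groups in rd10. Clec7a stood at 2.76 to 10.9 in C3H and 64.1 to 79.0 in rd10, and Gpnmb at 14.8 to 36.9 and 189 to 206. Spp1 (53.2 to 74.0 and 111 to 135) and Itgax (6.34 to 14.7 and 16.3 to 16.4) were also above the controls in every sample. For Itgax the margin was narrow and rests on 6 to 16 reads per C3H sample. Its ratio was 6.34 in the day 13 control, 14.7 in the day 23 control and 14.1 in the day 29 control. On the log2 scale the ratio differed by 3.53, 2.88, 0.98 and 0.52 for these 4 genes.

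Tyrobp (37.8 to 44.5 per 1000 in C3H and 37.7 to 46.3 in rd10), Trem2 (29.5 to 42.3 and 29.3 to 32.2) and Cst7 (1.09 to 3.17 and 2.06 to 4.28) overlapped the controls. The share of Apoe was lower in rd10 at 1630 to 1858 per 1000 against 3068 to 3701 in C3H, and so were those of Axl (255 to 285 against 467 to 506) and Lpl (115 to 151 against 321 to 390). Over all tested genes, this ratio was above the controls in every rd10 sample for 2.18% and below for 94.9%. With 3 against 3 samples, the exact two-sided permutation test of these ratios cannot go below p = 0.1, which the 7 genes without overlap reached.

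In rd1 the ratio to the pan-microglia level was above all controls for 3 of the 10 genes (Trem2, Itgax and Spp1) and below for 3 (Apoe, Lpl and Axl), against 24.0% and 21.6% of all genes. Itgax had a higher share in rd1, at 28.1 to 40.1 per 1000, than in rd10. In rd2 it was above for 3 (Lpl, Spp1 and Gpnmb), against 36.7% of all genes, and below for 0, against 4.04%. The homeostatic gene P2ry12, a purinergic receptor of resting microglia, stood at 165 to 169 per 1000 in C3H and 22.8 to 31.6 in rd10, and its level as such was not called lower there (log2 -0.36 ± 0.12, edgeR adjusted p = 0.0156, under 1.5-fold). Cx3cr1 stood at 239 to 274 and 138 to 143 per 1000, while its level as such was called higher in rd10 (log2 1.36 ± 0.07, edgeR adjusted p = 2.2e-12). The ratios of both P2ry12 and Cx3cr1 were below the controls in every rd10 sample, as were those of 94.9% of all tested genes. The log2 fold changes of the 14 homeostatic genes in rd10 ran from -1.43 to 3.72 (median 1.01).

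**Figure D3:**
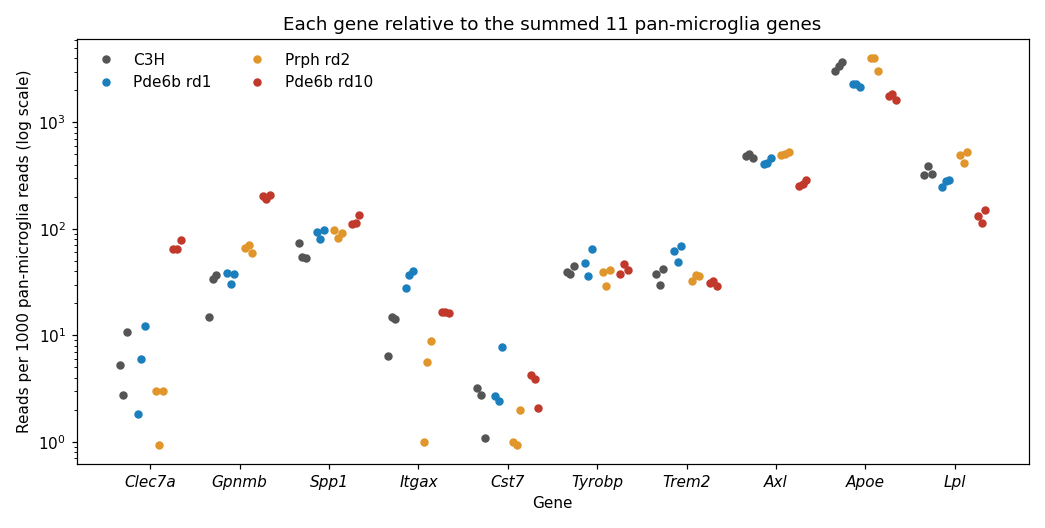
Reads of each gene per 1000 reads of the 11 pan-microglia genes (both TMM-normalized, log scale); each point is a sample. In rd10, Clec7a, Gpnmb, Spp1 and, by a narrow margin, Itgax lie above all C3H samples. Cst7, Tyrobp and Trem2 overlap the C3H samples, and Axl, Apoe and Lpl lie below them.

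The genes around the 10 were described with lists of related genes and of cell type markers, each by the counts of its called genes. Over all genes tested in rd10 against C3H, 15.9% rose and 8.08% fell. A gene was taken to pass by C3H where all its C3H samples reached the cut of the filter. Selection of the other genes through their rd10 samples favours a higher level in rd10. The count among genes that pass by their C3H samples is therefore given beside the count of a list. In rd10, 18 of 27 other disease-associated microglia genes rose and 0 fell, and 11 of the 20 that pass by their C3H samples rose, with a median log2 fold change of 0.70. They ran from Fabp5 and Ctsb (both 0.70) to Lilrb4a and Ch25h, the cholesterol 25-hydroxylase, which had 0 reads in every C3H sample and were at least 32.5-fold and 99.8-fold higher (against a floor of 3 reads over the group). Of 13 genes of TREM2-TYROBP signalling 8 rose (6 of 11 that pass by C3H), led by Vav1 (3.07) and the kinase Syk (2.47), which docks to phosphorylated TYROBP, and 0 fell. Of the TREM gene cluster next to Trem2, Treml2 alone passed the filter, and only through its level in rd10, with 22 to 32 reads against 0 to 2 in C3H. Of 19 genes of lipoprotein and lipid handling 10 rose (9 of 18 that pass by C3H), among them Apoc1 (1.76), the neighbour of Apoe, and Clu (1.73), and 0 fell. Of 18 ligands, partners and targets of the 10 genes, all of which pass by C3H, 11 rose, led by Icam1 (3.36) and Itgb2 (2.70), the partner chain of Itgax, and 0 fell. Of 10 myeloid transcription factors 6 rose (5 of 9 that pass by C3H), led by Spi1 (2.99), which encodes PU.1, and Cebpa (2.92), and 0 fell. None of the genes of these lists was called lower by DESeq2 or limma either, and at an unadjusted p under 0.05 alone 3 of the other disease-associated, 1 of the signalling and 2 of the lipid genes were lower.

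The homeostatic microglia list did not fall in rd10 as a whole. Of its 14 genes, all of which pass by C3H, 10 rose, among them Fcrls (3.72) and Olfml3 (2.19), and Slc2a5 alone fell by 1.43 on the log2 scale. Of the 8 monocyte and border macrophage genes tested, 7 passed the filter through their rd10 samples and were called higher, which the filter largely fixes. Lyve1, the only one that passes by its C3H samples, was not called (log2 0.27 ± 0.08). Ccr2, the chemokine receptor of blood monocytes, had 412 reads in the 3 rd10 samples together and 1 read in the 3 C3H samples (ratio 402, exact 95% interval 71.7 to 15913). The summed level of that list was 46.2 to 52.0 CPM in rd10 and 15.5 to 17.0 in C3H, where Pf4, Plac8 and Chil3 were at 0. Monocyte-derived cells can express the same 10 genes, and their part in the rd10 result was not tested.

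Neutrophil markers summed to 0.788 to 1.24 CPM in rd10, with Elane and Ngp at 0, and none was tested. Of 4 dendritic and T cell genes 2 rose (Cd8a by 4.74 and Flt3 by 0.76), and 1 of the 3 that pass by C3H. Among Müller glia and astrocyte genes, Gfap (3.19) and Vim (0.76) rose and Slc1a3 fell by 0.76, and the summed level was 3479 to 3645 CPM in rd10 against 3491 to 3570 in C3H. Of 7 pigment cell genes Tyrp1 rose (1.11). Endothelial (2 of 10), ganglion cell (2 of 10) and rod genes (5 of 10) that were called fell in rd10 and none rose. Over all tested genes 8.08% fell in rd10. A count of 2 of 10 is small, and no list was tested as a set.

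In rd1 and rd2 few genes were called in the lists of related genes and of microglia. In the rod list, 6 of 10 genes fell in rd1 and 4 of 10 in rd2, where 6.03% and 1.89% of all genes fell. Of the other cell type lists, 3 of 7 pigment cell, 2 of 10 ganglion cell and 1 of 10 endothelial genes fell in rd1. In rd1 Fabp5 rose (0.62) and Lgals3bp fell by 0.72 among 21 other disease-associated genes, and Vav1 alone (1.03) rose among 12 signalling genes. Of 18 lipid genes Angptl4 (0.67), an inhibitor of LPL, and Lrp8 (0.61) rose, while 3 fell, Clu (by 1.30) and Pltp (by 0.77) among them. Of 18 ligands, partners and targets 3 fell, namely Ctsh by 1.12, Cd44 by 0.73 and Gas6, the ligand of AXL, by 0.64. Bhlhe40 fell by 0.92 among the transcription factors and Lyve1 by 1.27 among the border macrophage genes, and of the homeostatic genes Fcrls rose (1.05) and Selplg fell by 0.59. Beside the fall of Apoe in rd1, 2 of 10 Müller glia and astrocyte genes fell, Glul and Aqp4, by 1.54 and 1.38, and 0 rose. The log2 fold changes of the 10 ran from -1.54 to 0.33 with a median of -0.34. The summed level of that list, in which Glul had the most reads, was 1995 to 2044 CPM against 3491 to 3570 in C3H. The part of these cells in the Apoe result was not tested.

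Among rd2 samples Lyz2 fell by 0.62 in the list of other disease-associated genes, Abcg1 fell by 0.72 in the lipid list, and 0 of 13 signalling genes, 0 of 18 ligands, partners and targets and 0 of 10 transcription factors were called by edgeR, DESeq2 or limma. At an unadjusted p under 0.05 alone, 0 of the signalling genes, 4 higher and 2 lower of the ligands, partners and targets, and 4 higher and 1 lower of the transcription factors would pass. Beside the rise of Gpnmb in rd2, 0 of 7 pigment cell genes were called by edgeR, DESeq2 or limma (1 higher and 1 lower at an unadjusted p under 0.05), and their summed level was 65.4 to 67.6 CPM against 65.6 to 67.9 in C3H. Tmem119, a marker of homeostatic microglia, rose in rd2 (0.84), while Fcrls and Sall1 fell by 1.33 and 0.60.

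**Figure D4:**
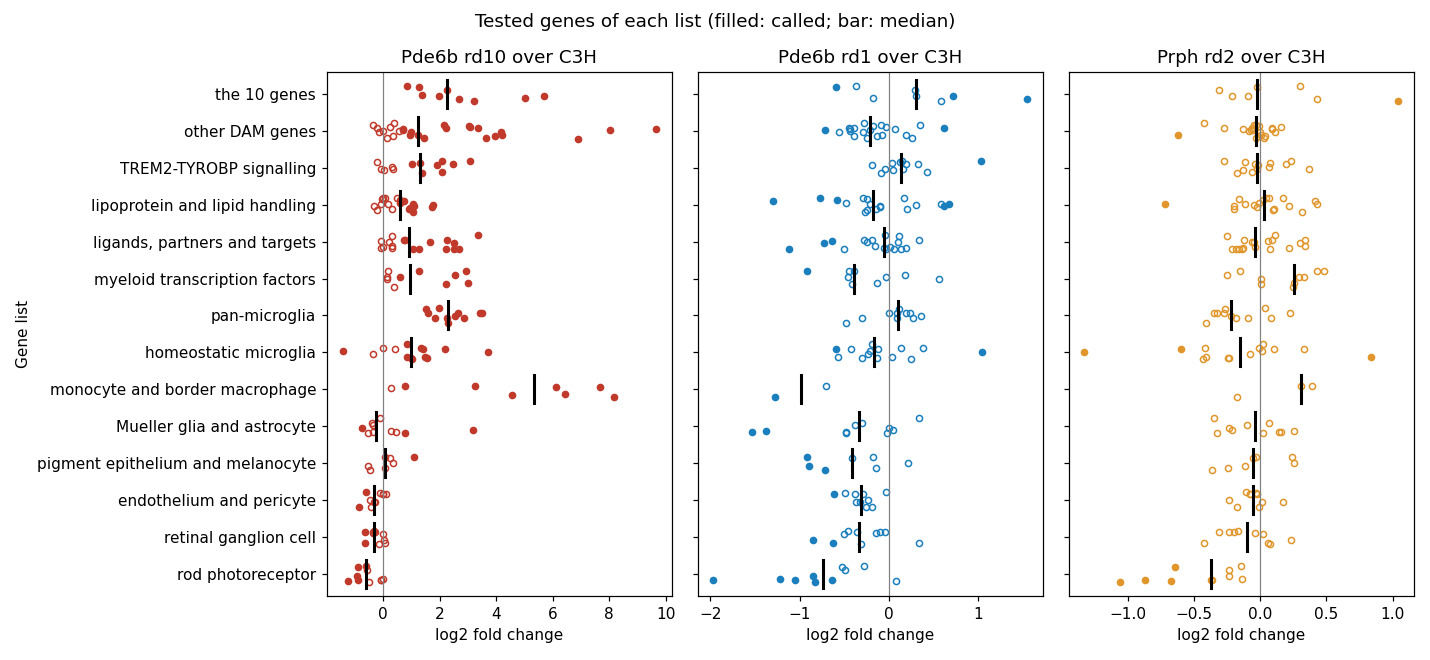
Log2 fold change against C3H (edgeR) of the tested genes in each list, with a scale of its own for each model; filled points are called genes and bars are list medians. In rd10 the medians of the 9 tested disease-associated genes (2.27), the pan-microglia genes (2.30) and the monocyte genes (5.34, mostly genes that passed the filter through rd10) lie to the right of 0, and in rd1 and rd2 most points are open.

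The genes whose levels over the 12 samples followed the mean of the 10 most closely, of 16564 genes compared, were Ch25h, Tgfbi, Edn2, 6820402A03Rik, Sned1, Trim12a, Tgm2, Stat3, C3 and Abhd14a (Pearson's r 0.997 to 0.998 on the log2 scale). These values rest on the difference between the 3 rd10 samples and the other 9 and are given as a description. Complement C3 had 32 to 34 reads in C3H, 29 to 44 in rd1, 33 to 45 in rd2 and 1003 to 1369 in rd10. Edn2, an endothelin of stressed photoreceptors, had 2 to 5 reads in C3H, 5 to 6 in both rd1 and rd2, and 695 to 833 in rd10. Trim12a had 0 reads in all 9 samples outside rd10 and 135 to 182 in rd10, and 6820402A03Rik at most 1 read and 116 to 171. By the methods, the strain and the allele cannot be told apart for such genes either, and the strain of the rd2 samples was not tested.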

How the data were processed

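Retina RNA of 12 mouse samples (4 groups of 3, by the labels) was depleted of ribosomal RNA and sequenced from directional libraries. The deposited counts come from the authors, who aligned reads to GRCm38 and counted them per gene with HTSeq 0.11.2, without normalization. The authors derived the deposited FPKM values from the same counts, and the gene lengths they imply equalled the summed exons of GENCODE vM21 for the 10 genes. Whether the counting used strand is not given in the sources used here. The authors also deposited circular RNA junction counts and TPM values (TopHat2 2.1.1 and CIRCexplorer), used here only to look for junctions at the 10 loci.

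Each model was tested against the 3 C3H samples with edgeR 4.0.16 in R 4.3.3 (TMM, filterByExpr with a minimum count of 10, quasi-likelihood test), and the models against each other in 1 fit of 12 samples. Calls needed an unadjusted p under 0.05 together with a change of 1.5-fold or more, and p-values were adjusted by Benjamini-Hochberg over every gene tested. The steps were tested on simulated data. The floor was set at 3 counts, which is 0.121 to 0.170 CPM per sample. Ratios to the pan-microglia level added 0.5 reads before log2. As alternatives, DESeq2 1.42.0, RLE size factors, limma 3.58.1 on log2(FPKM + 1) and log2(FPKM + 0.1), no filter, calls by the adjusted p, a joint fit of 12 samples, each sample left out, the C3H sample of the same day only, and the replicate number as a block were tried. The 10 genes and the lists were chosen with earlier results of these data known. All 10 genes are named, and of each list at most the 2 highest and 2 lowest called genes or all members of counts up to 5; for likeness, the 10 genes with the highest r at a mean CPM of at least 1. P2ry12 and Cx3cr1 were named beyond that rule and chosen after their values were seen.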

Additional observations from a re-analysis of the deposited data

Results flagged for a closer look

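The models differed from each other in these genes by direct contrasts (edgeR, 12 samples in 1 fit), which is why they are listed here. Between rd10 and rd1, 9 of the 9 tested genes differed, where 17.6% of all genes were higher and 11.2% lower in rd10. Between rd10 and rd2, 8 of 9 differed (13.5% and 6.16% of all genes). Between rd2 and rd1, 6 of 9 differed (8.21% higher and 8.66% lower of all genes). Clec7a passed the filter through its level in rd10, and 0 of the rd2 samples of Itgax reached the cut. The log2 differences of rd2 over rd1 were 0.59 for Apoe, 0.68 for Lpl and 0.75 for Gpnmb, with all 3 rd2 samples above all 3 rd1 samples, and -0.91 for Trem2 and -2.83 for Itgax, with all 3 below. The call of Apoe held in 5 of 13 alternatives. Clec7a, the sixth, had overlapping samples. Age and model cannot be told apart in these contrasts, since each model was taken on 1 day. Groups of 3 samples are too small for a test of single outlying samples.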

How the results depend on the processing

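Over the alternatives, 74 of 84 counts of called genes stayed within 1.5 times the reported count and 665 of 711 log2 fold changes kept their direction and call; 32 lost and 14 gained a call, and 0 reversed. In rd10 against C3H, the count was 9 or 10 and every tested gene kept its call in all 15 alternatives. With limma on log2(FPKM + 1), which understates changes of low genes, the counts were 0 for rd1 against C3H (3 reported), 0 for rd2 against C3H (1 reported) and 0 for rd2 against rd1 (6 reported); with 0.1 added the last was 3. For rd2 against C3H, where Gpnmb alone was reported, the count was 3 with all 12 samples in 1 fit. It was also 3 with no filter, where Gpnmb was higher (1.04) but Itgax (-1.30) and Clec7a (-1.53) were lower. Against the day 29 C3H sample only, Gpnmb was not called. Leaving out a sample gave counts of 1 to 3: 3 without C3H replicate 1, where Spp1 (0.61) was called too, and 2 without rd2 replicate 2 or 3. Against the day 13 C3H sample, which had 14 Gpnmb reads, Gpnmb was called in rd1 (1.21). Apoe in rd1 ranged from -0.64 to -0.49 and crossed the fold threshold in 5 of 15 alternatives. Trem2 in rd1 ranged from 0.24 to 0.84. Leaving out a sample gave 4 to 8 called genes for rd2 against rd1. Same-numbered samples did not deviate together in every pair (mean r of deviations -0.06 for rd10 and C3H, 0.06 for rd1 and C3H and -0.06 for rd2 and C3H). Between the models the mean r was 0.14 for rd10 and rd1, 0.26 for rd10 and rd2 and 0.23 for rd2 and rd1, against -0.07, -0.13 and -0.12 for different numbers, with replicates 2 and 3 at 0.24 to 0.42 and replicate 1 at -0.09 to 0.02. With replicate 1 not deviating together, the numbers were not taken to pair the samples, and a partial link between the models was not tested. With the replicate block the counts were 9 for rd10, 3 for rd1 and 1 for rd2 against C3H, 9 for rd10 against rd1, 8 for rd10 against rd2 and 5 for rd2 against rd1, where Apoe (0.58) was no longer called. The cause of these changes was not tested. Cst7, Clec7a and Itgax rest on few reads outside rd10, so only large differences were detectable there.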
